A study of Mus musculus with 2 samples.

Results

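Sphingosine 1-phosphate is a signalling lipid, and 10 mouse genes that encode its receptors, the kinases that make it, the lyase and phosphatase that remove it and an exporter that releases it were examined in liver. The genes were taken from a list of symbols. Each was represented by its brightest probe set, called a probe here, among those annotated to that symbol alone. All 10 were measured, each by 1 probe, out of 19938 genes with such a probe. The genes were chosen by family after the knockout minus wild-type differences of S1pr2 and S1pr4 on these arrays had been seen, so those differences are given as a description and no test is made of them.

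RNA came from the left liver lobe of male mice, and the 2 groups were wild-type mice and mice labelled FHL2-/-. Mice of both groups were 10 to 11 weeks old, on a hybrid Black Swiss/129-SV/J background, and no treatment is named for either group. Each group was a pool of 3 mice hybridised to 1 Affymetrix expression array, so there are no replicates, the spread between mice is hidden and no p-value or SD between animals can be given. The deposited values are log2 levels.

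Sphingosine kinases phosphorylate sphingosine to sphingosine 1-phosphate, which acts inside the cell or leaves it through transporters and then binds a family of G protein-coupled receptors. The phosphatase returns it to sphingosine, and the lyase cleaves it for good. In liver, receptors of this family are found on hepatocytes, sinusoidal endothelial cells, stellate cells and immune cells. FHL2, the LIM-domain protein missing in the knockout, is known to bind sphingosine kinase 1 in heart muscle cells.

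The Fhl2 probe read 5.30 in the wild-type pool and 5.33 in the knockout pool on the log2 scale. These levels are dim (percentile 37.3 of the probes with 1 symbol) and nearly equal. Which exons the knockout lacks is not stated in the labels, so this probe does not check the genotype.

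The start regions of S1pr2 and S1pr4, the receptor genes with the large differences, are shown with that of S1pr5, a receptor gene on the same chromosome as S1pr2 whose level was nearly the same in both pools. Each line holds the 250 bases before the RefSeq start, written 5′ to 3′ on the gene's own strand, which is the minus strand for all of them, in assembly GRCm38.p6. Capitals mark matches on either strand to any of 6 motifs: TGANTCA, bound by AP-1 factors, TGACGTCA, the cyclic AMP response element, GGGCGG, the element bound by SP factors and known as the GC box, TTCNNNGAA, the palindrome that STAT factors and BCL6 recognise, TATAAA, the core promoter element before many regulated genes, and the CArG box of serum response factor. The matches shown do not overlap each other.
S1pr2, chr9:20976794-20977043: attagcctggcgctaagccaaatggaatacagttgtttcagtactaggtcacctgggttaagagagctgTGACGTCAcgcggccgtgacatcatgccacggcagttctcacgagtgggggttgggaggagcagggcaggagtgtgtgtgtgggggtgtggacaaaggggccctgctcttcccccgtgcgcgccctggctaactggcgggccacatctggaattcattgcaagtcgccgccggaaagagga
S1pr4, chr10:81500138-81500387: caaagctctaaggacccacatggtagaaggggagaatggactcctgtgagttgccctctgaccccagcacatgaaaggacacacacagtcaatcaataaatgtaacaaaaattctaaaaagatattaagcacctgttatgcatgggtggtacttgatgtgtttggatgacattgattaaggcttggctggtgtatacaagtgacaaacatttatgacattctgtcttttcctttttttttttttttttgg
S1pr5, chr9:21248444-21248693: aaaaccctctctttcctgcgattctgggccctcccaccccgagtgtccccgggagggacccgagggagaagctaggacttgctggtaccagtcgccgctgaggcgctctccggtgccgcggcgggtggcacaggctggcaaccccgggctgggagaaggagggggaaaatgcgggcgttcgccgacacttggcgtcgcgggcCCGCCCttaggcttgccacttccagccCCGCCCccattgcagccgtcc

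The windows differed in base composition. The S1pr2 window was 59.2% G and C with 14 CpG dinucleotides, the S1pr5 window 69.2% with 22, and the S1pr4 window 38.8% with 0. The median of all 32851 start regions of this length was 52.4% with 6 CpG dinucleotides. The S1pr2 window held TGACGTCA, from 181 to 174 bases before the start, which 1.55% of all start regions hold. The S1pr4 window held none of the 6 motifs, and the S1pr5 window held the GC box 2 times, a motif found in 32.7% of all start regions. A match is a stretch of letters and not a binding site.

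Start regions were found for 9 of the 10 genes, 14 starts in all. Matches to the GC box also stood before S1pr3, both starts of Sphk2 and the start of Sgpl1. Before 2 of the 5 starts of Sphk1, whose windows overlap, stood TGANTCA and TTCNNNGAA, found in 6.75% and 7.02% of all start regions, and before another start of Sphk1 stood TATAAA, found in 12.4%. The windows of Sgpp1 and Spns2 held none of the 6. No window of these genes held the CArG box, which 1.47% of all start regions hold.

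Of the 5 receptor genes, S1pr2 and S1pr4 were the ones lower in the knockout pool by at least 1.5-fold, 0.58 on the log2 scale. The other 3 receptors and the 5 genes for enzymes and the exporter differed by less. Over all 10 genes, 4 were higher and 6 lower in the knockout pool, with a median difference of -0.05. Among the 11924 genes bright enough to be kept by the level filter described below, 40 (0.335%) were at least 1.5-fold lower and 74 (0.621%) at least 1.5-fold higher. With the arrays shifted to a common median these counts were 30 lower and 90 higher. S1pr2 and S1pr4 are among the 40 because of how the list was drawn up, and nothing is read from their share.

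Repeat measurements exist on these arrays where a gene has more than 1 probe. Among probes past the level filter, 660 genes had at least 2 such probes, 1809 probes in all, and their differences had an SD of 0.143 (log2) around their gene's mean. This is the SD between probes used below. It was larger among dim probes, at 0.237 over 745 probes of 226 genes below the filter, and 0.183 over all 2850 probes of the 999 genes with several. So 0.143 may be too small for the dim members S1pr3, S1pr4 and Sphk1, and for S1pr2, which was dim in the knockout pool. These SDs cover probe error and neither mice nor hybridisations. Of the 10 genes, 6 had a difference smaller than 0.143, and so did 59.7% of the genes kept by the filter. The filter kept genes whose mean level over both pools was at or above percentile 40 of all probes carrying 1 symbol, a log2 level of 5.438, and 9 of the 10 genes passed. Levels are brightnesses of different probes, so they are compared between the pools for 1 gene and not between genes.

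S1pr2 encodes a receptor that couples to several G proteins and that in hepatocytes also responds to conjugated bile acids. Its level was 6.72 in the wild-type pool and 5.77 in the knockout pool. The knockout level was therefore 1.93-fold lower, a difference of -0.95, or 6.64 times the SD between probes. It ranked 3 from the lowest among the 11924 genes. S1pr2 was picked with this value known, so multiple, rank and place in its bin describe it and lend it no support. The wild-type value stood at percentile 60.7 of the probes with 1 symbol on that array and the knockout value at percentile 46.4. The knockout value was thus about as dim as those of S1pr3, at percentiles 44.2 and 49.0. All genes were divided into 10 bins of equal size by mean level. In the bin of S1pr2, 1994 genes, differences ran from -0.34 at the 5th percentile to 0.37 at the 95th, and 11 genes (0.552%), S1pr2 among them, were at least 1.5-fold lower.

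S1pr4 encodes a receptor known mainly from lymphocytes and other blood-forming cells. It was at 5.98 in the wild-type pool and at 5.10 in the knockout pool. This is 1.84-fold lower, a difference of -0.88, at rank 5 from the lowest. It is 6.15 times the SD between probes of 0.143, which may be too small here, since probes below the filter had 0.237. S1pr4 was picked with this value known, so multiple, rank and place in its bin describe it and lend it no support. S1pr4 is a dim member, at percentile 49.5 of its array in the wild-type pool and 33.1 in the knockout pool. The knockout level lay below the filter level, and the gene passed through its wild-type level, so the size of its fold is uncertain. Its level bin, 1995 genes, ran from -0.40 at the 5th percentile to 0.33 at the 95th, with 15 (0.752%) at least 1.5-fold lower. The differences of S1pr2 and S1pr4 were 0.07 apart, less than the SD between probes.

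**Figure D1:**
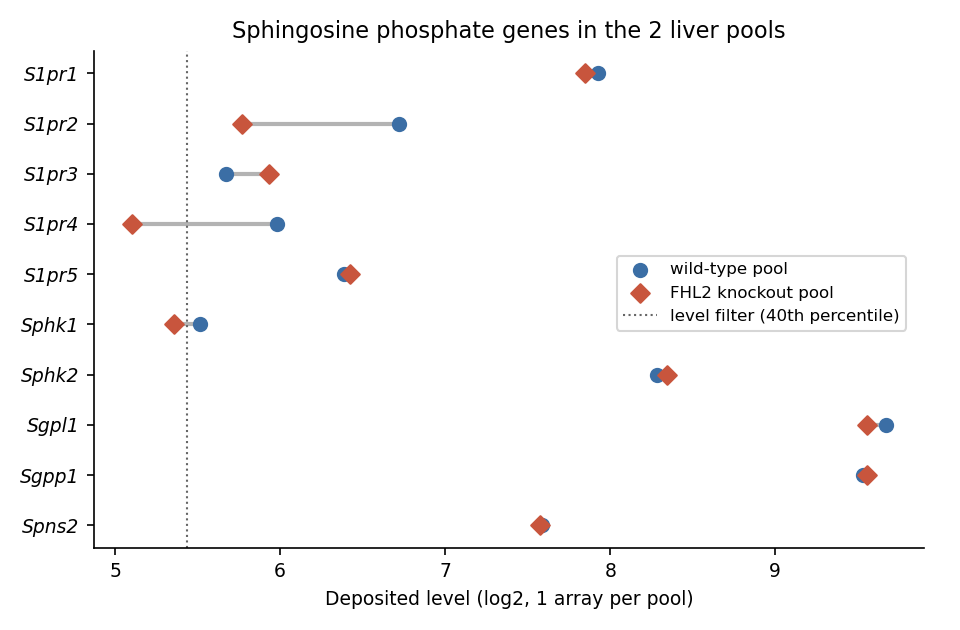
Deposited log2 level (horizontal axis) of the 10 sphingosine phosphate genes in the wild-type pool (circles) and the FHL2 knockout pool (diamonds), with 1 array per pool and so no error bars; the grey bar joins the values of 1 gene and the dotted line is the filter level of 5.438. S1pr2 and S1pr4 have the widest gaps, S1pr3 has the opposite order, and the remaining pairs lie close together.

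S1pr3, a receptor of vascular smooth muscle and stellate cells that couples to several G proteins, had the largest positive difference of the 10. Its level was 5.67 in the wild-type pool and 5.93 in the knockout pool, 1.20-fold higher, a difference of 0.26. That is 1.84 times the SD between probes and within the 5th to 95th percentile of its level bin, which is also that of S1pr4. S1pr3 was also dim, at percentiles 44.2 and 49.0. Its difference and that of S1pr2 were 1.21 apart.

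S1pr1, the receptor that endothelial cells need for barrier function and lymphocytes for leaving lymphoid organs, was at 7.93 in wild-type and 7.84 in knockout liver. The difference of -0.08 was 0.569 times the SD between probes. S1pr5, a receptor of natural killer cells and oligodendrocytes, was at 6.39 and 6.42, a difference of 0.04 (0.245 times that SD). For both receptors the pools cannot be told apart by these arrays, which does not show that the levels were equal.

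**Figure D2:**
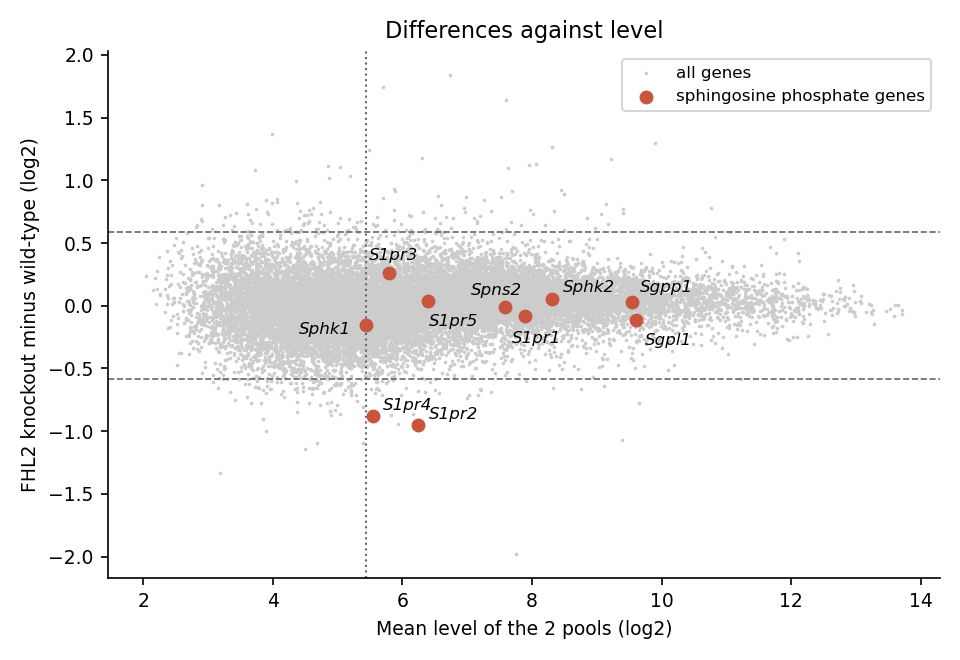
Difference between the pools (knockout minus wild-type, log2, vertical axis) against mean log2 level (horizontal axis) for all 19938 genes (grey) and the 10 sphingosine phosphate genes (red); dashed lines mark 1.5-fold and the dotted line the level filter. S1pr2 at -0.95 and S1pr4 at -0.88 lie below the lower dashed line, and the other 8 lie between -0.16 and 0.26.

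The kinase genes were close in both pools. Sphk1, the mainly cytosolic kinase that many growth signals induce, was at 5.52 in wild-type and 5.36 in knockout liver, a difference of -0.16, which is 1.10 times the SD between probes and smaller than the SD of 0.237 among probes below the filter. It is the 1 member that did not pass the level filter, with a mean level of 5.437 that fell just short of 5.438. Sphk2, a kinase found also in the nucleus and mitochondria and prominent in liver, was at 8.29 and 8.34, a difference of 0.06. Its probe was bright on both arrays, at percentiles 82.7 and 82.7.

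The genes that end or move the signal were bright and close. Sgpl1, the lyase that breaks sphingosine 1-phosphate irreversibly in the endoplasmic reticulum, was at 9.67 in wild-type and 9.55 in knockout liver, a difference of -0.12. Sgpp1, a phosphatase of the endoplasmic reticulum, was at 9.53 and 9.56, a difference of 0.03. Spns2, an exporter best known from endothelial cells, was at 7.58 and 7.57, a difference of -0.01, which turned to 0.03 when the arrays were shifted to a common median. All 3 differences were smaller than the SD between probes, with the lyase at 0.811 times that SD.

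Around these genes, 51 further genes of the pathway were listed by role and 47 were measured. None was past 1.5-fold in either direction, beside 1.43% of all genes in either direction, and the largest absolute difference was 0.34. At that share nothing is read from a count of 0 among 47. The median difference of the 47 was 0.06 and 31 of them were above 0. The median of all 19938 genes was 0.02, with 53.6% above 0. Among the 11924 genes past the level filter, as 35 of the 47 were, the median was 0.04, with 59.5% above 0.

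The list for sphingosine supply and handling held ceramidases, which release sphingosine from ceramide, further lipid phosphatases, the aldehyde dehydrogenase behind the lyase, and carriers and exporters. All 15 were measured, 7 above 0 and 8 below, with a median of -0.0035 that turned to 0.04 after the common median shift over the 13 past the filter. Asah2, the neutral ceramidase, was at 7.88 in wild-type and 8.15 in knockout liver, a difference of 0.27. Plpp3, a surface phosphatase that removes phosphate from lysophospholipids, was at 10.4 and 10.7, a difference of 0.24. Acer2, the Golgi ceramidase, had a difference of 0.20. Apom, the plasma carrier of sphingosine 1-phosphate made by hepatocytes, was at 11.4 and 11.3, a difference of -0.08, and is named although its difference is not among the leading ones of the list.

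Related receptors bind lysophosphatidic acid and other lysophospholipids, and 10 of the 12 genes of this list were measured, 7 above 0 and 3 below, with a median of 0.10. Only 3 of them passed the level filter. Lpar6 was at 7.03 in wild-type and 7.28 in knockout liver, a difference of 0.25. Lpar1 had a difference of 0.09, and Ptafr, the receptor for platelet-activating factor, one of 0.05. The lowest of the 10 differences, -0.32, belonged to a gene below the level filter.

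Among G proteins and effectors of the receptors, 9 of 13 measured genes were above 0 and 4 below, with a median of 0.04. Arhgef11, a guanine nucleotide exchange factor, was at 7.33 in wild-type and 7.60 in knockout liver, a difference of 0.28. Gna13 and Gna12, alpha subunits of G proteins, had differences of 0.23 and 0.21. The list of trafficking factors and partners had 8 of 9 genes above 0 and a median of 0.16, with a range from -0.05 to 0.29. The 8 include Fhl2 itself at 0.02 and Cd69 at 0.29, both below the level filter. Past the filter 6 of 7 were above 0, beside 59.5% of all genes past it. Stat3, a transcription factor linked to S1pr1 signalling, had a difference of 0.29, Klf2, which drives S1pr1 transcription in lymphocytes, 0.24, and Traf2, a reported intracellular binding partner of sphingosine 1-phosphate, 0.19. No list's median was as far from 0 as 0.58. That threshold is for single genes, and 1.43% of all genes were past it, so nothing is read from this.

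**Figure D3:**
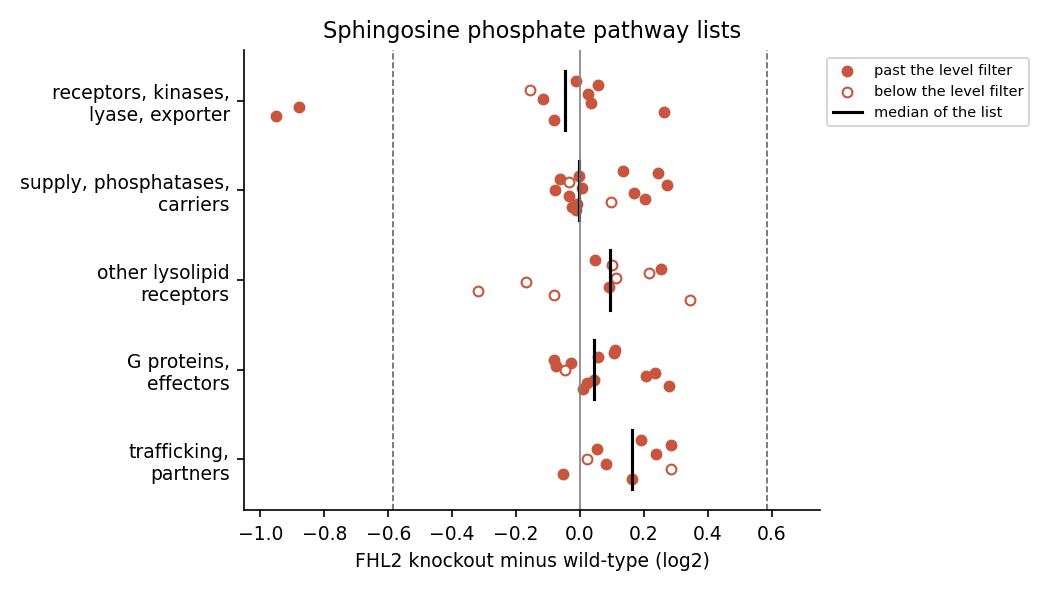
Difference between the pools (knockout minus wild-type, log2, horizontal axis) for each gene of 5 pathway lists; filled points passed the level filter, open points did not, the black bar is the list's median and dashed lines mark 1.5-fold. S1pr2 and S1pr4 are the 2 points left of the dashed line, and the 47 further genes lie within 0.34 of 0.

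Because receptors differ in the cells that carry them, marker genes of liver cell types were read beside them. Fewer cells of a type and less RNA per cell cannot be told apart in such pools. The labelled tissue was borne out by bright hepatocyte markers, with Alb at 13.7 in both pools. Macrophage markers, listed because Kupffer cells are the resident macrophages of liver, were below 0 for 9 of 10 genes, with a median of -0.16. All 10 passed the level filter, and of all genes past it 59.5% were above 0, with a median of 0.04. The summed level of the macrophage markers, with log2 values turned back to a linear scale, was 3053 in wild-type and 2760 in knockout liver. The lowest were Adgre1 at -0.40, Marco at -0.38 and Csf1r at -0.28. The list was not uniform: C1qc was at 0.22, and Timd4 at -0.0025 and Cd5l at -0.0077 were nearly equal in both pools.

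Markers of blood cells that could carry S1pr4 were mostly dim. T and NK cell markers were below 0 for 5 of 8 genes, with a median of -0.12 and summed levels of 249 and 225 in the wild-type and knockout pools. Neutrophil markers were below 0 for 6 of 8, with a median of -0.15 and summed levels of 242 and 216. B cell markers were below 0 for 2 of 7, with a median of 0.05 on the other side of 0 and summed levels of 224 and 222. Such sums add brightnesses of different probes, most of them dim here, so they follow the brightest probes and the background and carry no direction of their own. Of these 23 markers 4 passed the level filter. Over all 19938 genes 53.6% were above 0, with a median of 0.02. None of the 23 markers is listed at 0, since the deposited scale has no true zero. Of the 69 markers measured in the 9 cell type lists none was past 1.5-fold, beside 1.43% of all genes in either direction. At that share nothing is read from the count. The lowest, Gp9 of platelets, was at -0.53. The part of macrophages, lymphocytes and neutrophils in the lower S1pr2 and S1pr4 values was not tested.

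Sinusoidal endothelial markers were above 0 for 9 of 10 genes, with a median of 0.12 and summed levels of 3630 and 3949, beside S1pr1 at -0.08. All 10 passed the level filter, and of all genes past it 59.5% were above 0, with a median of 0.04. Stellate cell markers had 4 genes above and 4 below 0, a median of -0.02 and summed levels of 2448 and 2383, beside S1pr3 at 0.26. Hepatocyte markers had a median of 0.06 and bile duct markers one of 0.15, the latter over 5 genes. Red blood cell and platelet markers had 4 of 5 genes above 0 and a median of 0.31. That median is the value of Pf4, which was below the level filter, as was Ppbp. Past the filter were 3 genes with a mean of 0.04. These were Alas2, the red blood cell gene, at 0.29, and the platelet genes Itga2b at 0.34 and Gp9 at -0.53.

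**Figure D4:**
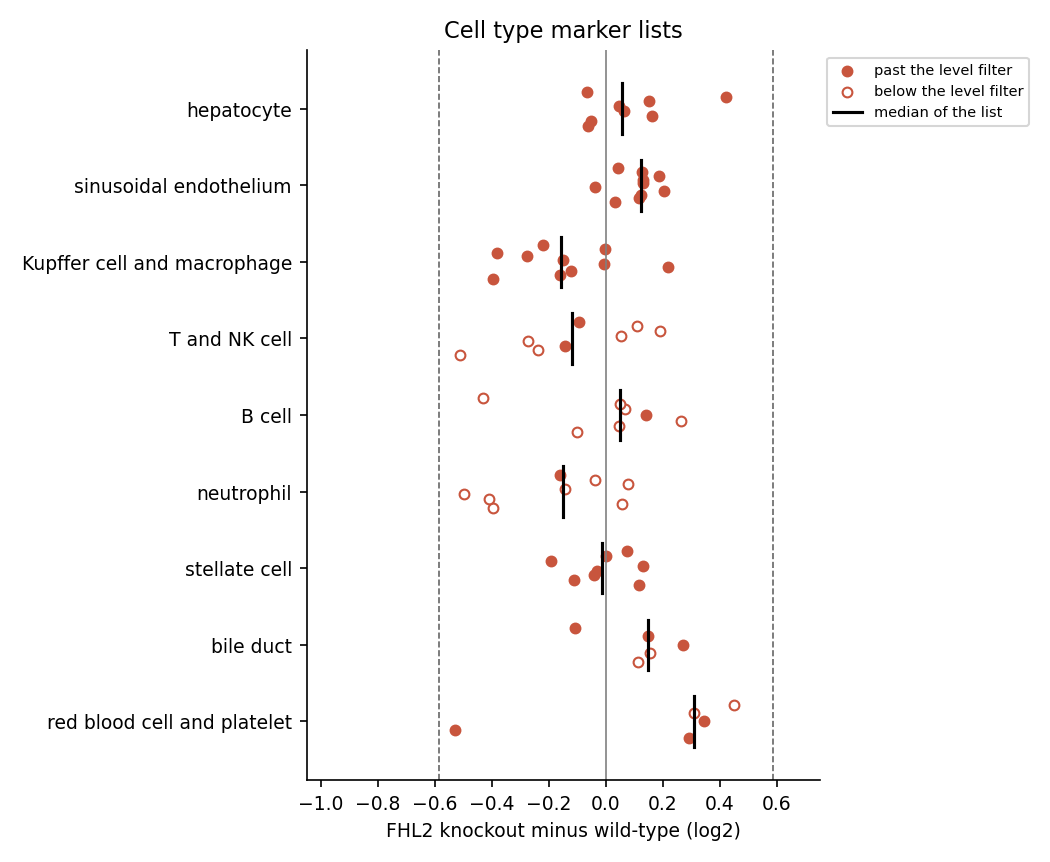
Difference between the pools (knockout minus wild-type, log2, horizontal axis) for the marker genes of 9 cell type lists; filled points passed the level filter, open points did not, the black bar is the list's median and dashed lines mark 1.5-fold. No marker lies outside the dashed lines, macrophage markers lie mostly left of 0 and endothelial markers mostly right of it.

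Neighbouring genes are described as the chromosomal context of S1pr2 and S1pr4, with gene order taken from the reference table. Since these receptors were picked for their low values, their place below their neighbours follows from that choice, and the values shown are those of the neighbours. S1pr2 lies on chromosome 9 between Dnmt1, the maintenance DNA methyltransferase, and Mrpl4, a mitochondrial ribosomal protein, with 9 measured genes between it and S1pr5. Dnmt1 was at 6.76 in both pools and Mrpl4 had a difference of -0.02. The 10 nearest measured genes, 5 on each side, ran from -0.18 (Icam1, an adhesion molecule) to 0.12 (Icam4), with 0 past 1.5-fold. With 1.43% of all genes past 1.5-fold, nothing is read from a count of 0 among 10.

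S1pr4 lies on chromosome 10 between Ncln and Gna15, the latter a G protein subunit of blood-forming cells. Ncln was at 7.27 in wild-type and 7.53 in knockout liver, a difference of 0.27, and Gna15 was at 4.89 and 4.69, a difference of -0.20. Gna11, the next gene on and a G protein subunit of this pathway, had a difference of 0.04. The 10 neighbours ran from -0.54, for Celf5, an RNA-binding protein known from neurons, to 0.27, with a median of 0.02 and 0 past 1.5-fold. Nothing is read from that count either, with 1.43% of all genes past 1.5-fold. Around S1pr5, the 10 neighbours ran from -0.26 to 0.27.

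**Figure D5:**
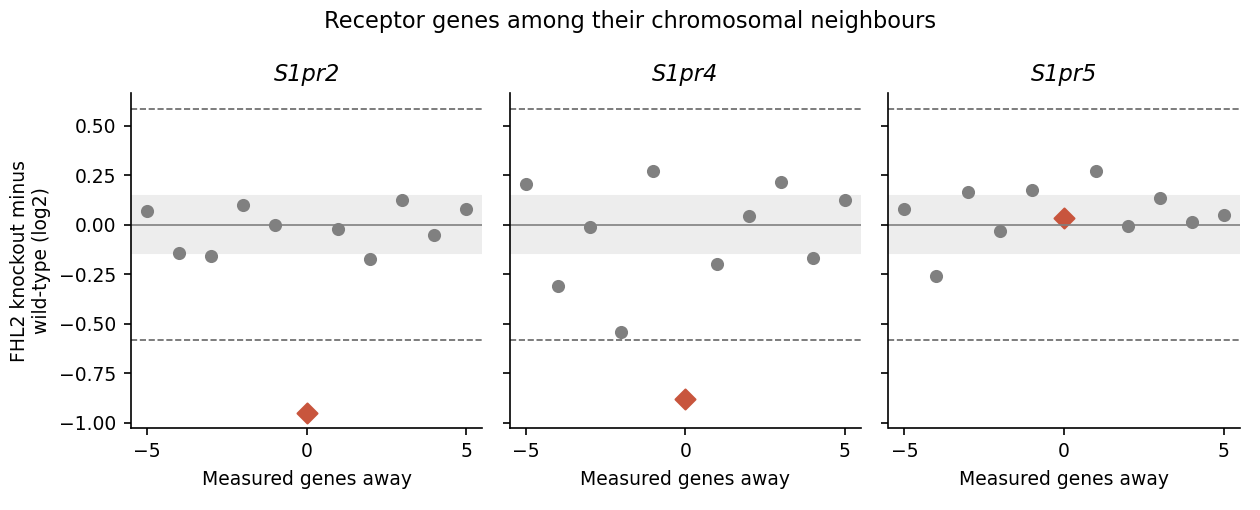
Difference between the pools (knockout minus wild-type, log2, vertical axis) for S1pr2, S1pr4 and S1pr5 (red diamonds) and the 5 nearest measured genes on each side (grey points), placed by their order on the chromosome; the grey band is 1 SD between probes of a gene (0.143) on each side of 0, and dashed lines mark 1.5-fold. The neighbours of S1pr2 lie between -0.18 and 0.12 and those of S1pr4 between -0.54 and 0.27, all inside the dashed lines; the red points were picked with their values known.

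The other members had 10 nearest measured genes each, and 1 of all these was past 1.5-fold, beside 1.43% of all genes. Nothing is read from that count. The gene was Dbp, a clock-controlled transcription factor next to Sphk2. Dbp was at 6.99 in wild-type and 7.75 in knockout liver, 1.69-fold higher. Sphk2 beside it was at 0.06.

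With 2 pools, the only pattern a gene can share with another is the size of its difference. Nearest to S1pr2 among the genes past the filter were H2bc9, a histone gene, at -0.94, S1pr4 at -0.88 and Slc39a10, a zinc importer, at -0.87. Nearest to S1pr4 were Slc39a10, Rpl10l, a retrogene of a ribosomal protein, at -0.86 and Asns, which makes asparagine, at -0.85. Slc39a10 was at 6.26 in the wild-type pool and 5.39 in the knockout pool, the latter below the filter level of 5.438. Like S1pr4, it passed through its wild-type level, so the size of its fold is uncertain. Gaps were between 0.0067 and 0.08 on the log2 scale. Histone and ribosomal genes have near-identical copies that can share probes, so the values of H2bc9 and Rpl10l are uncertain.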

How the data were processed

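The deposited table holds a log2 level per probe set and array, and per the submitters' processing notes Affymetrix Expression Console 1.0, RMA and Partek 6.4 were used, with no order or role named. The centring, the scaling between arrays and the build were not found in the labels. RMA shrinks differences of dim probes, and no detection calls accompany the values. The number of arrays, 1 per group, limits the precision. The medians of the arrays were 5.76 (wild-type) and 5.71 (knockout).

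Of 28853 probes, 21789 had 1 gene symbol in the platform annotation, 1621 several and 5443 none. A gene's brightest probe by mean level represented it, and the difference is knockout minus wild-type. Of 19938 genes, 19856 matched the RefSeq table of GRCm38.p6, used for names and gene order, and start regions come from RefSeq in the same build. The 6 motifs were searched on both strands. Each member was set beside its bin of 10 by mean level.

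Members and lists were chosen with earlier results of these data known. Named genes are the 10 members, Fhl2, list genes past 1.5-fold or among the 3 largest absolute differences past the filter of each pathway list, and the 3 genes nearest in difference to S1pr2 and to S1pr4. Others, namely Apom, Cd69, the marker genes and the chromosomal neighbours, were named after their values were seen. Alternatives were a common median, quantile normalisation, lowess with a span of 0.3, the mean over probes, other level filters (none, 60th percentile), 2-fold and list means. Steps were tested on simulated data. Software was Python 3.11.15, pandas 2.3.3 and statsmodels 0.14.6.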

Additional observations from a re-analysis of the deposited data

How the results depend on the processing

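All 10 members shifted by under 1 SD between probes with a common median, quantile normalisation, lowess and the mean over probes. The last cannot move them, since each has 1 probe. S1pr2 ran from -0.95 to -0.91 and S1pr4 from -0.88 to -0.83 over these settings. Spns2 was the member that changed sign, to 0.03 at a common median. With no level filter the counts past 1.5-fold were 153 higher and 133 lower, against 41 and 14 for a filter at the 60th percentile. At 2-fold the counts were 11 and 2. At the 60th percentile 0 members past 1.5-fold were left, because S1pr2 and S1pr4 are too dim to pass. The median of the members past the filter, -0.01, was 0.03 at a common median, and their mean was -0.18, which S1pr2 and S1pr4 weigh on. The median of the supply list was 0.04 at a common median and 0.0020 at the 60th percentile, and its mean was 0.06. The median of the other lysophospholipid receptors was 0.25 at the 60th percentile, which is the difference of Lpar6, the only gene of that list left there. No paired analysis was possible because each group is 1 pool and the labels give no replicate numbers. Brightness limits S1pr4, S1pr3 and Sphk1 most, and also the knockout value of S1pr2, and no setting replaces the missing replicate arrays.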
